A study of Saccharomyces cerevisiae with 8 samples.

Results

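Untreated budding yeast that lived on the pcf11-dNL allele was compared with untreated wild type by direct RNA sequencing, which reads polyadenylated RNA directly from the 3′ end, so that reads count transcripts and also locate their poly(A) sites. The comparison took 3 of the 8 libraries of the study, chosen by their labels: 1 pcf11-dNL library from experiment 2, and wild-type libraries from experiments 1 and 2. By the labels, all 3 came from W303 MAT alpha cells with ura3-1, trp1-delta, ade2-1, leu2 and his3-11,15, in which the chromosomal PCF11 gene was deleted with TRP1. The labels list a LEU2 plasmid, pRS325, with a copy of the gene. In wild type this copy was PCF11 with a V5 and a MYC tag, and in the mutant it was a V5- and MYC-tagged allele that the labels call deltaN-link. The labels do not state the bounds of that deletion. Cultures grew in YPAD, a rich glucose medium, at 30 °C from an OD600 of 0.2 to between 1.0 and 1.2, and 3 µg of total RNA was sequenced per culture. The mutant group is a single library, and tagged plasmid-borne PCF11 is shared by all groups. The other 5 libraries are both wild-type and the pcf11-dNL cultures after 2 h in 20 mM caffeine and a second allele, pcf11-13, in both media. They are used here for the spread of the tests and for values set beside the untreated ones.

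Pcf11 belongs to cleavage factor IA and is needed for viability. The factor works with cleavage and polyadenylation factor to cut the nascent transcript at the poly(A) site. It also binds the C-terminal domain of RNA polymerase II and takes part in the release of the polymerase from the template, both downstream of protein-coding genes and after short non-coding transcripts such as snoRNAs. Its partners in cleavage factor IA are Rna14, Rna15 and Clp1, and Hrp1 forms cleavage factor IB. A change in this machinery can alter how much of a transcript is made and where its 3′ end lies, and the deposited tables give a measure of each.

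Estimated counts over 5933 genes summed to 1070278 in wild type of experiment 1, 1631254 in wild type of experiment 2 and 1071339 in pcf11-dNL. A single count was thus worth 0.934, 0.613 and 0.933 CPM (counts scaled by library size, with the TMM factor for gene levels), and 3 counts in the mutant library were worth 2.80 CPM. The wild-type library of experiment 1 stood apart from the other 2 in some genes, hexose transporters and CYC1 among them. In addition, rows of URA3 and the 2-micron plasmid held 8.37% of its counts, against 0.368% in wild type of experiment 2 and 0.463% in pcf11-dNL. URA3 itself was at 18920, 213.5 and 140.2 CPM. The labels list ura3-1 and no URA3 plasmid for these strains, and the source of the URA3 reads was not tested. The wild-type libraries may thus differ in more than the experiment. Results are therefore given against each wild-type library. Transcripts of the alpha mating type were present in all 3 libraries (MF(ALPHA)1 at 926.9, 1333 and 740.7 CPM), and the a-factor gene MFA1 was low but detected, at 32.3, 46.6 and 45.2 CPM. Nothing in the labels says that cultures were independent beyond the experiment numbers, so that p-values measure spread among these libraries only, and that spread may be technical.

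PCF11 (YDR228C, chrIV:921926-923806, minus strand) gave 206.8 counts in wild type of experiment 1, 166.8 in wild type of experiment 2 and 141.8 in pcf11-dNL, which are 205.2, 109.0 and 132.4 CPM. The mutant level lay between the wild-type levels. The fitted log2 fold change was -0.24 ± 0.40 (SE; edgeR quasi-likelihood test, adjusted p = 0.965), and its sign turned to 0.28 without the experiment 1 library and to 0.11 with a replicate block. By the labels the chromosomal gene was deleted, so that in each strain these reads come from the tagged plasmid copy. Reads at the 3′ end do not themselves show the allele. The other subunits were also close to wild type. RNA14 was at 170.0, 166.6 and 148.3 CPM, RNA15 at 158.4, 149.0 and 169.8, and CLP1 at 82.9, 80.4 and 79.3. HRP1, a gene known to lower its own expression through early poly(A) sites, was at 328.7, 263.6 and 469.8 CPM, above both wild-type libraries by 0.51 and 0.83 on the log2 scale, and did not pass the test (edgeR adjusted p = 0.846).

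Of 5849 genes tested, 2 rose in pcf11-dNL and none fell (0.0342% called; edgeR quasi-likelihood test over 6 group means, adjusted p under 0.05). At an unadjusted p under 0.05 there were 351 genes, 244 of them higher, and the lowest adjusted p of a lower gene was 0.472. DESeq2 called 18 genes, all higher. Without 1 treated wild-type library edgeR called 63 genes (52 higher, 11 lower) or 65 genes (56 higher, 9 lower), depending on the library left out. Both sets held all 12 leading higher genes described here, and their lower calls included CYC1, LEU1, BAT1 and URA3 and no ribosomal protein gene. The fit has 2 residual degrees of freedom, both from wild-type pairs, and assumes that the lone mutant library varies like wild type.

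EGO4 (YNR034W-A, chrXIV:692561-692857, plus strand) encodes a small protein whose paralogue, Ego2, belongs to the EGO complex on the vacuole that acts on the growth-controlling kinase TORC1. It had 38.7 counts in wild type of experiment 1, 70.8 in experiment 2 and 528 in the mutant, or 38.4, 46.2 and 492.8 CPM. Both wild-type libraries were far below the mutant and close to each other. The log2 fold change was 3.52 ± 0.27 (edgeR adjusted p = 0.00482, 0.0123 with the replicate block and 0.0802 without the experiment 1 library).

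GPH1 (YPR160W, chrXVI:861306-864014, plus strand) encodes glycogen phosphorylase, which releases glucose units from stored glycogen. It had 38.0, 61.7 and 259.3 counts, or 37.7, 40.3 and 242.1 CPM, again with the wild-type libraries close together and the mutant above both. The log2 fold change was 2.62 ± 0.29 (edgeR adjusted p = 0.0392). This call was lost with the replicate block (adjusted p = 0.0819) and without either wild-type library (0.228 without experiment 1 and 0.0788 without experiment 2). In caffeine, GPH1 was at 195.5 and 217.7 CPM in wild type and 270.6 CPM in pcf11-dNL, so that all 3 treated libraries were near the untreated mutant level, whereas EGO4 was at 42.5, 47.0 and 55.1 CPM. The untreated pcf11-13 library of experiment 1 had EGO4 at 143.3 CPM and GPH1 at 222.7 CPM.

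Because 1 mutant library gives the test little reach, each gene was also described by its distance from both wild-type libraries on the log2 CPM scale. In 97 genes (1.66%) the mutant was at least 2-fold above both, and in 22 genes (0.376%) at least 2-fold below both. The wild-type libraries differed from each other by 2-fold or more in 379 genes, 6.48% of those tested. Of the 97 genes, 68 (70.1%) were also higher in wild type of experiment 2, the mutant's own experiment, than of experiment 1, 16 of them by 2-fold, where 52.0% of all genes were higher and 3.52% by 2-fold. Genes above both without a limit on size made up 32.9% of all genes, and genes below both 32.4%. Against the experiment 2 library alone, 231 genes were 2-fold higher and 130 lower, and against the experiment 1 library alone 286 and 115.

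Among the best-covered of the 97 genes, several encode enzymes that phosphorylate or process glucose. GLK1, glucokinase, was at 202.3 CPM in wild type of experiment 1, 232.3 CPM in experiment 2 and 1463 CPM in pcf11-dNL, a log2 fold change of 2.75 ± 0.35 (edgeR adjusted p = 0.0865, and 0.0387 when only the 3 untreated libraries were fitted). HXK1, a hexokinase of glucose-poor growth, was at 71.0, 274.3 and 982.3 CPM. TDH1, the glyceraldehyde-3-phosphate dehydrogenase isoform of resting cells, was at 166.1, 237.6 and 989.2 CPM. Neither HXK1 nor TDH1 passed the edgeR test. In all 3 genes the mutant was above both wild-type libraries, and in HXK1 the wild-type libraries themselves stood well apart. They were the only 3 of 23 listed glycolysis and fermentation genes at least 2-fold above both. That list had a median log2 fold change of 0.25, with 0.47 against experiment 1 and 0.14 against experiment 2. Of its genes 13 were above both wild-type libraries (32.9% of all genes were) and 2 below both (32.4% of all genes were). GLK1 and HXK1 are also members of the stress list described below.

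Stress proteins and membrane or wall proteins formed the rest of the leading genes. HSP30, a stress protein of the plasma membrane that lowers proton pump activity, was at 49.5, 151.2 and 919.0 CPM, and YRO2, a related membrane protein, at 103.8, 271.9 and 961.7 CPM. SSE2, a chaperone of the Hsp110 family, was at 44.2, 46.5 and 191.2 CPM, and TPS2, the phosphatase of trehalose synthesis, at 205.9, 201.7 and 751.6 CPM. RGI1, a gene of respiratory growth, was at 177.5, 324.3 and 1566 CPM. TIP1, a mannoprotein of the cell wall, was at 103.8, 255.5 and 956.0 CPM, and RTC3 at 28.8, 20.9 and 112.0 CPM. Their fitted log2 fold changes ran from 1.88 ± 0.34 for TPS2 to 3.17 ± 0.76 for HSP30, and none of these 7 passed the edgeR test, with adjusted p from 0.247 to 0.472. In the edgeR fit of the 3 untreated libraries HSP30, SSE2 and RTC3 were called (adjusted p = 0.0463 for each), and DESeq2 called YRO2, TIP1, SSE2, TPS2, RGI1 and RTC3 but not HSP30 (adjusted p = 0.809).

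**Figure D1:**
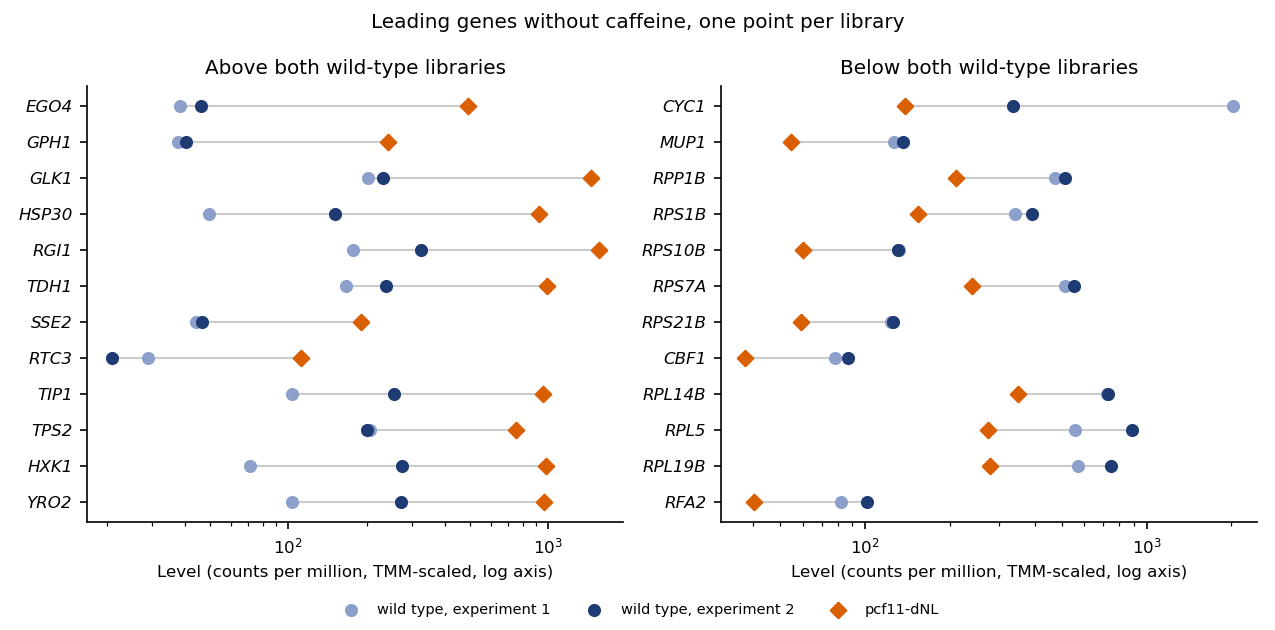
TMM-scaled CPM (log axis) of the 12 leading genes in each direction, 1 point per untreated library. In the left panel every pcf11-dNL point lies to the right of both wild-type points, with EGO4 at 492.8 against 38.4 and 46.2; in the right panel every one lies to the left, and CYC1 has the widest gap between the wild-type libraries, 2021 against 336.4.

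The pentamer AGGGG, bound by the stress transcription factors Msn2 and Msn4, was looked up on both strands (AGGGG or CCCCT) in the 250 bases before each gene's start in RefSeq assembly R64. It was found in 18.6% of all 5899 promoters, 46.4% of the 97 genes 2-fold above both wild-type libraries and 9.09% of the 22 genes 2-fold below both. Matches lay before 6 of the 12 leading higher genes. For these, 30 bases around 1 match are shown on the gene's strand, with the match in capitals, so that the spelling and its surroundings can be compared.
EGO4, chrXIV:692394-692423, plus strand: taaagctatcatAGGGGtataaataagaga
GLK1, chrIII:50659-50688, plus strand: ctttcagggggcCCCCTatcttgggcgtgg
RGI1, chrV:291836-291865, plus strand: gcagcgttcttaAGGGGtattgctgggtgg
TDH1, chrX:338030-338059, plus strand: atagtctgaagaAGGGGgggaggagcatgt
SSE2, chrII:576205-576234, minus strand: tttctagaacgtCCCCTtaccaaaaatcac
RTC3, chrVIII:280608-280637, plus strand: taacaacaacgaCCCCTtatttagtcgaag
The capitals spell AGGGG in EGO4, RGI1 and TDH1 and CCCCT in GLK1, SSE2 and RTC3. The 250 bases held 3 matches in GLK1, 1 of them in lower case in the window shown, 2 in RGI1 and 1 in each of the others. GPH1, HSP30, TIP1, TPS2, HXK1 and YRO2 held no such match in this window. A match is a description of the letters and was not tested as a site.

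Genes of the common environmental stress response, which most yeast stresses induce together, were high as a group. This list, like the others here, was chosen with earlier results of these data known. Of 60 listed members, 55 were above both wild-type libraries (32.9% of all genes were) and 1, the peroxisomal catalase gene CTA1, was below both, and 25 were at least 2-fold above both (1.66% of all genes). The list's median log2 fold change was 1.05, against -0.02 over all genes. Its median was 1.29 against experiment 1 and 0.97 against experiment 2, while the wild-type libraries differed by 0.11 in the median. Summed over the list, the level was 11520 CPM in wild type of experiment 1, 11090 CPM in experiment 2 and 22660 CPM in pcf11-dNL. Of this list, 1 gene, GPH1, passed the edgeR test, and 34 members had an unadjusted p under 0.05. The pentamer above was found before 39 of the 60 genes (65.0%).

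The genes of reserve carbohydrate metabolism, which make and break down trehalose and glycogen, partly overlap with that list. Of 21 members, 19 were above both wild-type libraries (32.9% of all genes were), 8 at least 2-fold (1.66% of all genes). PGM1, the minor phosphoglucomutase, was below both. The median log2 fold change was 0.96, with 0.99 against experiment 1 and 0.94 against experiment 2. PGM2, the major phosphoglucomutase, was at 70.9, 68.7 and 228.1 CPM, and GSY1, a glycogen synthase, at 18.7, 49.7 and 147.5 CPM. Neither passed the test (edgeR adjusted p = 0.314 for both), and GPH1 is the called member of this list too.

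Targets of the heat shock factor Hsf1, mostly chaperones, depended more on which wild type was used. The list shares HSP104, HSP78, HSP42, HSP26 and SSA4 with the stress list. Of 24 members, 20 were above both libraries (32.9% of all genes were) and 1, HSP10, was below both. At least 2-fold above both were 4 members (1.66% of all genes). The stress, trehalose and glycogen, and heat shock lists together held 28 of the 97 genes 2-fold above both. The median log2 fold change was 0.66, but it was 0.93 against experiment 1 and 0.37 against experiment 2. The wild-type libraries differed by 0.63, and with the replicate block the median was 0.17. HSP104, the disaggregase, was at 273.8, 261.4 and 951.4 CPM. HSP82, an Hsp90 chaperone, was at 162.1, 309.8 and 854.0 CPM, and SSA1, an Hsp70 chaperone with a close paralogue in SSA2, at 20.7, 51.1 and 172.7 CPM. The mutant was above both wild-type libraries in all 3, and none passed the test (lowest edgeR adjusted p = 0.472). Genes of the oxidative stress factor Yap1 had a median log2 fold change of 0.06, with 8 of 17 above both and 4 below both.

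The other lists of carbon genes had smaller medians. Genes repressed by glucose, a list that shares ALD4 with the stress list, had a median log2 fold change of 0.41. Of 29 members, 21 were above both wild-type libraries (32.9% of all genes were) and 2 below both (32.4% of all genes were). At least 2-fold above both were 2 members (1.66% of all genes). ACS1, an acetyl-CoA synthetase, was at 71.5, 81.9 and 101.3 CPM. Hexose transporters had a median of 0.36, but their summed level was 1234 CPM in wild type of experiment 1, 8934 CPM in experiment 2 and 9438 CPM in pcf11-dNL, so that the large gap lay between the experiments. HXT4 was at 33.2, 987.1 and 1109 CPM. Genes of the respiratory chain had a median of 0.50 against experiment 1 and -0.09 against experiment 2.

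**Figure D2:**
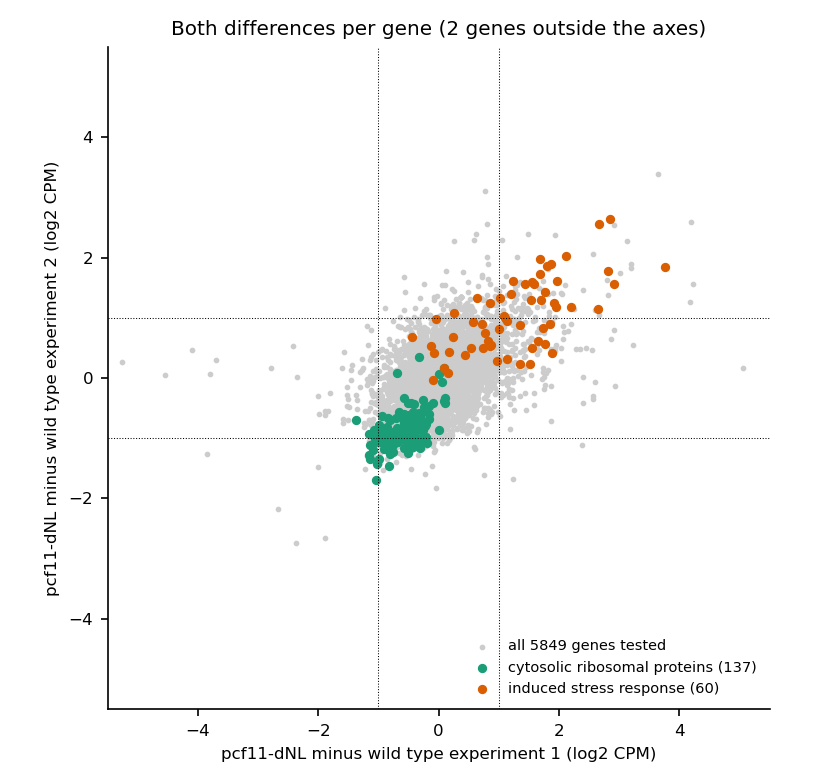
Each point is a gene, placed by the log2 CPM difference of pcf11-dNL from wild type of experiment 1 (horizontal) and of experiment 2 (vertical); dotted lines mark 2-fold, and 2 genes lie outside the axes. The 60 stress genes lie mostly in the upper right, 25 of them beyond both lines, and the 137 ribosomal protein genes lie mostly in the lower left, 8 of them beyond both lines.

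Genes of the cytosolic ribosome were low as a group. Of 137 ribosomal protein genes, 128 were below both wild-type libraries (32.4% of all genes were) and 1, RPL18B, was above both. None passed the edgeR test, 23 had an unadjusted p under 0.05, and 8 were at least 2-fold below both (0.376% of all genes). The median log2 fold change was -0.76, with -0.54 against experiment 1 and -0.89 against experiment 2, while the wild-type libraries differed by 0.29. Their summed level was 139700 CPM in wild type of experiment 1, 166800 CPM in experiment 2 and 96320 CPM in pcf11-dNL. The small subunit had 52 of 56 genes below both and a median of -0.73, the large subunit 71 of 76 and -0.77, and the stalk proteins 5 of 5 and -0.81.

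Ribosomal protein genes also made up 8 of the 22 genes at least 2-fold below both. RPP1B, an acidic protein of the stalk, was at 473.1, 514.0 and 211.0 CPM, and RPL5, which binds 5S rRNA, at 558.9, 885.4 and 272.9 CPM. RPS10B was at 132.3, 131.0 and 60.1 CPM, RPS1B at 340.5, 391.6 and 153.6 CPM and RPS7A at 511.2, 552.9 and 239.5 CPM. In RPS21B the levels were 123.8, 125.3 and 59.2 CPM, in RPL14B 721.0, 727.0 and 350.3 CPM and in RPL19B 568.7, 745.9 and 277.8 CPM. The fitted log2 fold changes of these 8 ran from -1.41 ± 0.48 for RPL5 to -1.05 ± 0.37 for RPL14B, with edgeR adjusted p from 0.472 to 0.730. Most yeast ribosomal proteins have paired gene copies of nearly the same coding sequence, and the sources used here do not give how shared reads were assigned.

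The other leading lower genes had separate roles. CYC1, iso-1-cytochrome c, was at 2021 CPM in wild type of experiment 1, 336.4 CPM in experiment 2 and 138.9 CPM in pcf11-dNL, so that the wild-type libraries differed more than the mutant did from experiment 2. MUP1, a methionine permease, was at 126.9, 136.5 and 54.7 CPM. CBF1, a centromere-binding factor that also activates methionine genes, was at 78.1, 87.2 and 37.5 CPM, and RFA2, a subunit of the single-stranded DNA binding complex RPA, at 82.4, 101.8 and 40.3 CPM. None passed the edgeR test (adjusted p from 0.582 to 0.820).

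In the median, ribosome biogenesis genes were lower in the mutant than in wild type of experiment 2 only. Their median log2 difference was 0.07 against experiment 1 and -0.65 against experiment 2, the wild-type libraries differing by 0.72. Of 117 genes, 49 were below both (32.4% of all genes were) and 2 above both (32.9% of all genes were), so that few lay above both. Promoters of this list held GATGAG, the PAC element, in 92.3% of genes against 17.2% of all promoters, and AAAATTTT, the RRPE element, in 78.6% against 8.71%, both strands searched. In the 97 higher genes these shares were 15.5% and 2.06%, and in the 22 lower genes 13.6% and 9.09%. Translation factors had a median log2 fold change of -0.35, with 19 of 26 below both and 2 above both.

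Amino acid biosynthesis genes, targets of the activator Gcn4, had a median of -0.37, with 32 of 52 below both wild-type libraries and 3 above both. For the counts in this paragraph, 32.4% of all genes were below both and 32.9% above both. ARO2, chorismate synthase, was at 182.6, 194.9 and 104.7 CPM, and ARG56, a precursor of 2 arginine enzymes, at 133.3, 149.1 and 76.4 CPM. In the sulfur amino acid list 13 of 25 were below both and 2 above both, and MET17, which makes homocysteine, was at 150.9, 127.4 and 66.1 CPM. No gene of these lists passed the edgeR test (adjusted p = 0.790 for ARO2, 0.756 for ARG56 and 0.730 for MET17). Autophagy genes had a median of 0.21, with 14 of 27 above both and 5 below, and the proteasome genes -0.13, with 7 of 33 above both and 16 below. Lists for RNA polymerases I and III, histones, cyclins, nitrogen, purines, ergosterol, phosphate, iron, cell wall, pheromone response, mating type and early termination had medians between -0.28 and 0.17.

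Genes of the 3′-end machinery had medians near that of all genes, of which 32.9% were above both wild-type libraries and 32.4% below both. The factors linked to termination and polyadenylation had a median log2 fold change of -0.12 over 24 genes. Of these, 3 were above both and 11 below both, so that more lay below. The cleavage and polyadenylation factor list had a median of 0.02 over 15 genes, with 5 above both and 7 below both. SYC1, a subunit of that factor, was at 67.3, 66.9 and 118.4 CPM (edgeR adjusted p = 0.717), and RRP6, a nuclear exonuclease, at 57.2, 73.5 and 39.7 CPM (adjusted p = 0.820). Genes directly downstream of a snoRNA on the same strand had a median of -0.01 over 31 genes, with 13 above both and 10 below both. One of them, YDR042C, was at least 2-fold above both, at 109.2, 45.4 and 227.8 CPM (adjusted p = 0.472). It was named after its values were seen, as was BSC5 later in the text.

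The difference between genotypes was also set beside the same difference in caffeine. No gene passed the test of a difference between the media (edgeR adjusted p under 0.05; 128 genes at an unadjusted p under 0.05, lowest adjusted p 0.18, for EGO4), and DESeq2 called 3, EGO4, GLK1 and RGI1. Of the 97 genes at least 2-fold above both wild types without caffeine, 43 were above both treated wild-type libraries in treated pcf11-dNL (24.8% of all genes were), 1 of them (BSC5) by 2-fold (0.103% of all genes), and 17 were below both (31.4% of all genes). The stress list had medians of 0.35 and -0.06 against the treated wild types of experiments 1 and 2, and the ribosomal protein list -0.44 and 0.11. The treated libraries were deeper, with 4413677 and 4410374 counts in wild type and 4555751 in pcf11-dNL, and the part of depth in these medians was not tested.

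**Figure D3:**
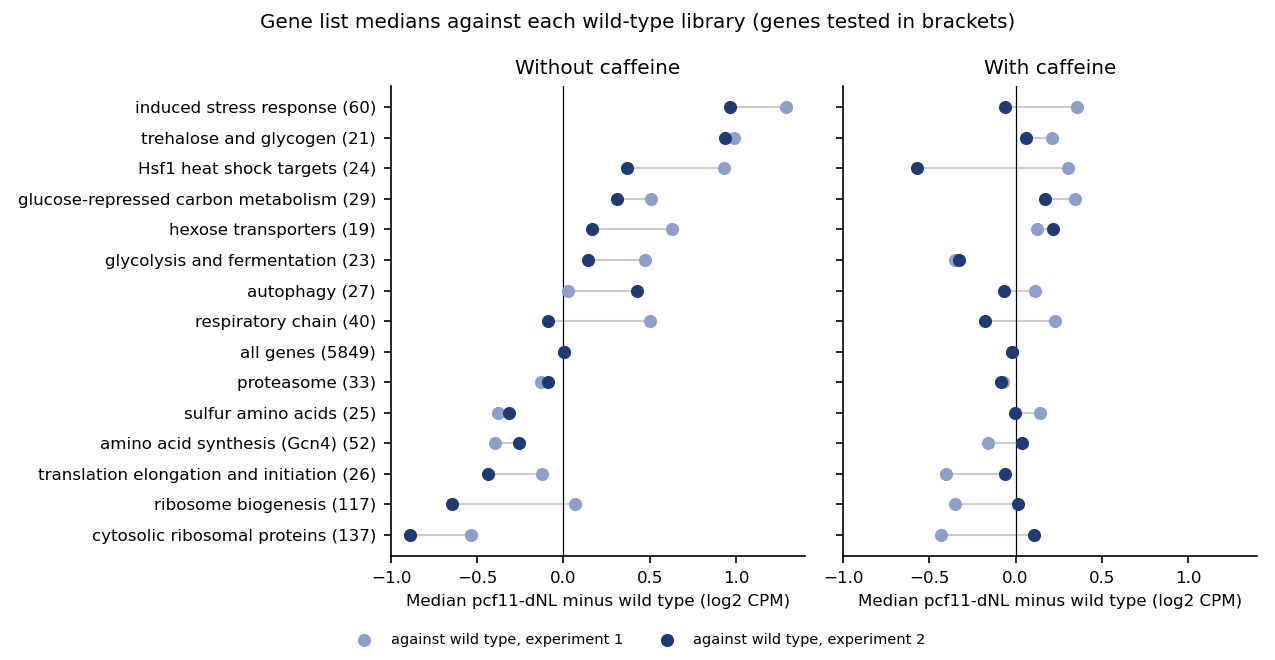
Median log2 CPM difference of pcf11-dNL from the wild-type library of experiment 1 (light) and experiment 2 (dark) for 14 gene lists and all genes, without caffeine (left) and with caffeine (right). Without caffeine the stress list lies at 1.29 and 0.97 and the ribosomal protein list at -0.54 and -0.89; with caffeine both lists have medians on either side of 0.

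Transcripts of pcf11-dNL ended slightly farther downstream. The mean 3′ UTR length that the authors deposited for each gene had a median of 142.8 nt in wild type of experiment 1, 141.2 nt in experiment 2 and 148.7 nt in pcf11-dNL, over 5165 genes that reached 20 counts in all 8 libraries. The median gene was 3.22 nt longer than in experiment 1 and 3.60 nt longer than in experiment 2, while the wild-type libraries differed by -0.13 nt. Of all genes 51.4% were longer than in both wild-type libraries and 18.8% shorter than in both. At least 20 nt separated 563 genes (10.9%) upward and 139 genes (2.69%) downward from both. No single gene passed limma (lowest adjusted p = 0.142; 654 genes at an unadjusted p under 0.05, 568 of them longer). In caffeine the medians were 132.6 and 132.4 nt in wild type and 134.1 nt in pcf11-dNL, and the median gene differed by 0.41 and 0.71 nt.

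The longer ends were more frequent where the next gene lay on the opposite strand. Among 2817 genes with a convergent next gene, 16.1% were at least 20 nt longer than in both wild types and 3.34% shorter, and the median differences were 5.61 and 6.95 nt. Among 2322 genes with a tandem next gene these values were 4.78%, 1.81%, 1.83 nt and 1.85 nt. Convergent genes also had longer 3′ UTRs in wild type, with a median of 154.9 nt against 124.4 nt. Within the convergent genes the share was 16.6% where the next gene lay within 300 bases and 14.9% where it lay farther, and within the tandem genes 1.16% and 6.04%. In 4 equal groups of genes ordered by wild-type length the share was 5.80%, 10.6%, 12.8% and 14.4% from the shortest to the longest, and in 4 groups ordered by read count it was 16.4% in the lowest and 5.42% in the highest. The part that length, coverage and neighbours have in one another was not tested.

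**Figure D4:**
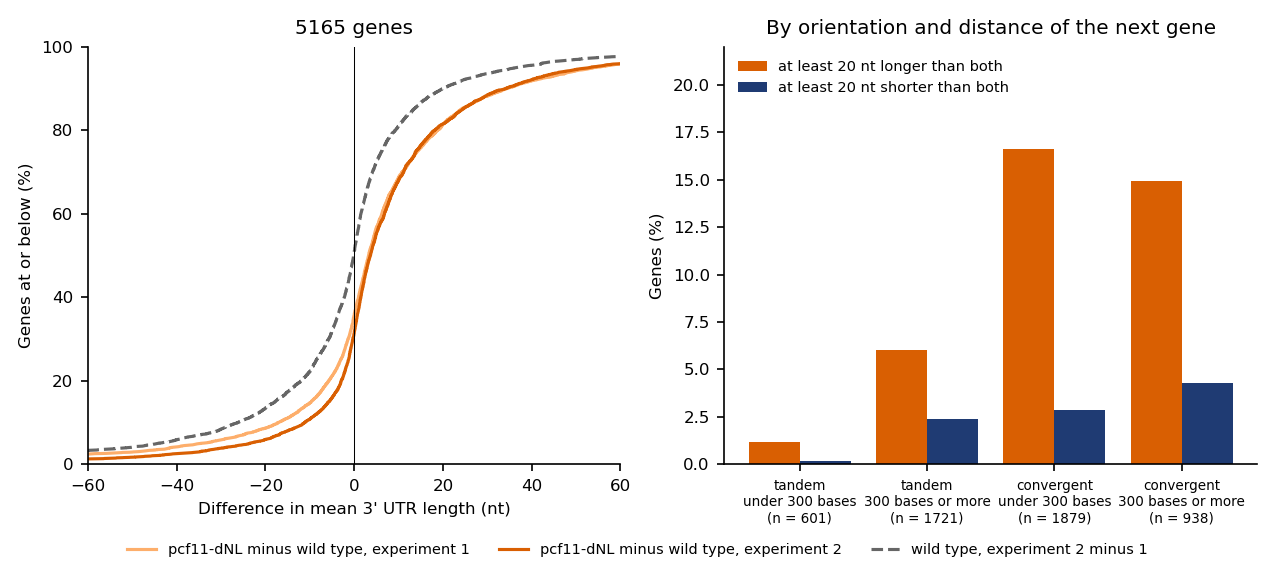
Left, cumulative share of 5165 genes by difference in mean 3′ UTR length (nt) for pcf11-dNL against each wild-type library (solid) and between the wild-type libraries (dashed); the solid curves lie to the right, with medians of 3.22 and 3.60 nt against -0.13 nt. Right, share of genes at least 20 nt longer or shorter than in both wild types, by orientation and distance of the next gene; the 2 convergent groups have 16.6% and 14.9% longer.

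Ribosomal protein genes were also longer as a group, since 116 of 137 were longer than in both wild types and 5 shorter, where 51.4% of all genes were longer. Their median length was 110.2 nt in wild type of experiment 1, 112.7 nt in experiment 2 and 118.8 nt in pcf11-dNL, and 15 of them were longer by at least 20 nt, which is near the 10.9% of all genes. In the factors linked to termination and polyadenylation 20 of 23 genes were longer than in both, with medians of 130.2, 132.6 and 160.5 nt. Their median gene was longer by 13.1 nt against experiment 1 and 9.2 nt against experiment 2. The stress list did not follow this pattern, with 23 of 51 genes longer and 16 shorter, and medians of 153.4, 158.3 and 153.3 nt. Its median gene was longer by 1.71 and 1.14 nt.

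The genes with the longest extension were covered by few reads. AUS1, a transporter for sterol uptake, had mean lengths of 151.6 and 149.7 nt in wild type and 345.8 nt in pcf11-dNL, from 82.0, 113.5 and 109.7 counts, and in caffeine all 3 libraries lay between 96.6 and 111.1 nt. NUM1, which anchors dynein at the cell cortex, had 116.2, 98.1 and 273.9 nt, and RIF1, a telomere protein, 121.6, 78.3 and 234.1 nt. The fitted differences were 195.1 ± 7.79 nt for AUS1, 166.7 ± 9.39 nt for NUM1 and 134.1 ± 29.1 nt for RIF1 (limma adjusted p = 0.142, 0.142 and 0.285). MCD4 and LCB3, enzymes of GPI anchor and sphingolipid metabolism, and NUP120, a nuclear pore protein, were longer by 137.7 ± 38.0, 163.1 ± 39.8 and 149.1 ± 84.7 nt, and did not pass either (limma adjusted p from 0.326 to 0.595).

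Shorter ends were seen in SPI1, a cell wall protein of stressed cells, with 485.2, 306.4 and 181.0 nt, where the wild-type libraries were far apart. GSM1, a putative transcription factor, had 699.5, 671.8 and 535.8 nt, and TRK1, a potassium transporter, 344.4, 256.1 and 162.3 nt. YLR285C-A had 386.1, 691.8 and 266.0 nt, and the retrotransposon genes YHL009W-B and YJL113W had 496.9, 481.5 and 362.4 nt and 587.4, 537.3 and 437.6 nt. The mutant was below both wild-type libraries in all 6 genes, and none passed limma (adjusted p from 0.180 to 0.595). Retrotransposon copies are near-identical in sequence, so that their values are uncertain.

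The truncated fraction, the authors' share of a gene's reads that lie upstream of the 3′ UTR, placed the mutant between the wild types. Its median over 5167 genes was 8.73% in wild type of experiment 1, 6.03% in experiment 2 and 7.98% in pcf11-dNL, and the median difference was -0.19 percentage points against experiment 1 and 0.85 against experiment 2. No gene passed limma (458 at an unadjusted p under 0.05, lowest adjusted p 0.345). In 151 genes (2.92%) the mutant was at least 10 points above both wild types and in 60 (1.16%) at least 10 points below both. PCF11 itself had 65.3%, 32.1% and 34.7% truncated reads (95% Wilson interval for pcf11-dNL 27.2 to 42.6%; such intervals, from rebuilt read numbers, cover counting error only).

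HSL1, a kinase that links septin assembly to mitotic entry, had truncated shares of 42.0% and 35.1% in wild type and 69.2% in pcf11-dNL (57.7 to 78.3%). CTS1, the endochitinase of cell separation, had 64.8%, 63.3% and 90.9% (80.4 to 96.1%). In both the mutant interval lay above the wild-type shares, a gap that their choice by distance from both wild types favours. In caffeine the mutant was near wild type, at 22.9% against 20.0% and 18.0% for HSL1 and 68.0% against 66.8% and 71.3% for CTS1. SDS24 had 35.6%, 46.4% and 11.8% (8.16 to 16.7%), below both. The fitted differences were 30.7 ± 3.75 points for HSL1, 26.8 ± 2.53 for CTS1 and -29.3 ± 5.83 for SDS24 (limma adjusted p = 0.346, 0.345 and 0.418). SIA1, BNI4, NHX1 and SPC42 were the other leading higher genes, by 22.4 to 29.7 points, and BTN2, YDR124W, AOS1, YGR130C and NNR2 the other leading lower ones, by -29.8 to -19.1 points. The lowest limma adjusted p among them was 0.345.

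**Figure D5:**
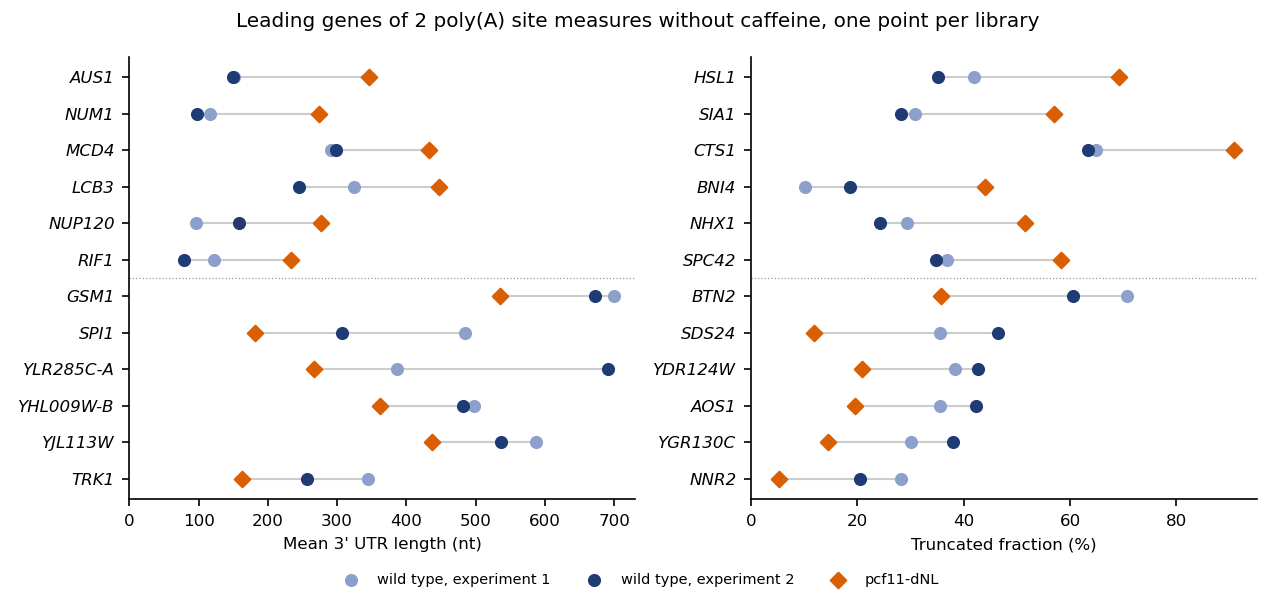
Mean 3′ UTR length in nt (left) and truncated fraction in percent (right) of the 6 leading genes in each direction, 1 point per untreated library, with higher genes above the dotted line. AUS1 is at 345.8 nt in pcf11-dNL against 151.6 and 149.7 nt, and HSL1 at 69.2% against 42.0% and 35.1%.

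The proximal fraction, a further deposited share that never exceeds the truncated fraction and whose bounds the sources used here do not state, had medians of 0.359% in wild type of experiment 1, 0.343% in experiment 2 and 0.488% in pcf11-dNL. The median gene differed by 0.0 percentage points from experiment 1 and by 0.000128 points from experiment 2. The mutant value was higher in 48.35% of genes against experiment 1 and in 62.59% against experiment 2. Limma called 170 genes, 156 higher and 14 lower (3.29%). These calls rested on few reads: 149 of the 156 higher genes had under 10 proximal reads in the mutant, with a median of 0.999 reads, and in 136 both untreated wild-type values were under 0.1%. With a replicate block, with a test on rebuilt read numbers (129 genes at an unadjusted p under 0.05), or without either untreated wild-type library, no gene was called. The test on rebuilt read numbers took only the 2797 genes with at least 10 proximal reads summed over all libraries, so that it could not call the others. At least 10 points separated the mutant from both wild types in 53 genes (1.03%) upward and 27 (0.523%) downward.

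HSL1, CTS1 and SPC42, a protein of the spindle pole body, were among the leading higher genes here too, with SPC42 at 31.8%, 33.3% and 55.5% (44.8 to 66.7%). CTO1, which lies downstream of a snoRNA on the same strand, led the lower ones at 58.0%, 89.3% and 34.5% (29.6 to 39.9%). SDS24 had 33.4%, 43.2% and 10.4% (7.04 to 15.1%). None of these 5 was among the limma calls (adjusted p of 0.0939 for CTS1, 0.10 for SPC42, 0.137 for HSL1, 0.238 for SDS24 and 0.612 for CTO1).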

How the data were processed

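The authors deposited 4 tables over 5933 genes and 8 libraries: expected counts, estimated per gene without normalization per the file headers, of which 9.72% were whole within 1e-06; average 3′ UTR length in nucleotides, with 5 genes listed at -1 and treated as missing; and, per the file headers, a truncated and a proximal fraction. The authors' pooled count of 3′ UTR reads was used to check the truncated fraction: it lay within 1 read of the count times the untruncated share, summed over libraries, in 99.8% of genes. Per the submitters' processing notes, reads were placed on sacCer3. The sources used here do not give the aligner or the counting and strand rules. Of the gene IDs, 5919 matched RefSeq R64 and 14 did not.

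Rounded counts were fitted in R 4.3.3 by edgeR 4.0.16 (TMM, filterByExpr, glmQLFit, glmQLFTest, Benjamini-Hochberg) as 6 group means over 8 libraries, and DESeq2 1.42.0 was an alternative. Log2 CPM used a prior count of 2. Lengths and fractions were tested with limma 3.58.1 on genes that reached 20 counts in all libraries. The files give no read class counts per library, so limma was used as planned, and an edgeR test on class reads, the fraction multiplied by the count, was added after the data were seen, as was a fit without URA3 and 2-micron rows. The tests were tried on simulated data in which the lone mutant library varied like the others. Such data cannot show whether that assumption holds. Named genes were PCF11, up to 12 per direction for expression (mean of at least 50 counts), up to 6 per direction for each poly(A) measure and up to 4 per gene list, ranked by the smaller of the differences from the wild-type libraries. Members and lists were chosen with earlier results of these data known. Replicate numbers are the labels' experiment numbers, which tie libraries of the same experiment. Across 5849 genes the wild-type differences between experiments correlated between media at r = 0.194, so that a replicate block was fitted as an alternative.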

Additional observations from a re-analysis of the deposited data

Results flagged for a closer look

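For the proximal fraction, limma called 122 genes whose difference between pcf11-dNL and wild type was not the same with and without caffeine. Of these, 111 had under 10 proximal reads in both pcf11-dNL libraries. No gene was called with a replicate block or by the test on rebuilt read numbers, which gave 68 genes at an unadjusted p under 0.05. The test on rebuilt read numbers left out genes with under 10 proximal reads summed over all libraries, and so could not call them. HSL1, CTS1, SPC42, CTO1 and SDS24 were not among the 122.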

How the results depend on the processing

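Main values were 2 genes called for expression, 0 for a difference between media, 119 genes past 2-fold and 170 proximal calls. The replicate block gave 1 expression call and 0 proximal calls, for the genotypes and for their difference between media (122 without it). It left the counts for length, truncated fraction and expression between media at 0. The 3 untreated libraries alone gave 7 expression and 295 proximal calls. DESeq2 gave 18 expression calls and 3 between media. Leaving out 1 wild-type library gave 0 to 65 expression calls (0 without untreated experiment 1, 2 without untreated experiment 2, 63 and 65 without a treated library), 0 to 13 between media, 0 to 295 proximal calls, 361 to 401 genes past 2-fold, a median length difference of 3.22 to 3.60 nt, a median truncated difference of -0.19 to 0.85 points, against 0.12 with both, and a median proximal difference of 0.0 to 0.000128 points. A mean of at least 50 counts left 77 genes past 2-fold. A minimum of 10 counts gave 1 length call, SRL4, shorter. The added test on rebuilt reads, over the 2797 genes with enough proximal reads, gave 0 proximal calls. Leaving out 1 untreated wild-type library turned the sign of 15 of 33 list medians, to at most 0.190 in size, and the replicate block that of 6. Among the signs that turned, with the range on leaving out 1 library, were PCF11 (-0.63 to 0.28), ribosome biogenesis (-0.65 to 0.0673), MATalpha-specific genes (-0.74 to 0.14) and plasmid and marker genes (-0.82 to 0.165). With the replicate block PCF11 was at 0.105 and the marker genes at 0.0813. The cause was not tested. Of the settings tried on the expression of named genes, 69 kept direction and call, 4 lost a call and 2, both of PCF11, turned sign. Apart from PCF11, these genes were chosen to lie on the same side of both untreated wild-type libraries. Leaving out either library could thus hardly turn their sign, and only EGO4 and GPH1 had a call to lose. A lone mutant library of 1071339 counts limits what low-count genes can show.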
